A study of Mus musculus with 4 samples.

Results

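The SMAD proteins and the SKI and TGIF corepressors were followed in MA-10 cells, a clonal mouse Leydig tumor cell line, after cordycepin treatment. The members were 10 of the 19718 genes named on the array, Smad1, Smad2, Smad3, Smad4, Smad5, Smad6, Smad7, Tgif1, Ski and Skil. All probes carrying exactly 1 of these symbols were taken, which gave 12 of the 26423 mouse probes on each array, with 2 probes each for Smad2 and Smad5. Cells received 100 μM cordycepin, an adenosine analog that lacks the hydroxyl group through which an RNA chain is extended, or vehicle alone, both for 3 hours. RNA of each group was measured on 2 one-colour arrays, H001 and H002 for the vehicle control and H003 and H004 for cordycepin. The vehicle is DMSO in the paper and PBS in the labels, and another label field gives the cordycepin at 20 mg/mL. The line is 1 clone, and whether the duplicates were separate cultures is not stated. The p-values below therefore reflect array-to-array spread only, and that spread may be technical.

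SMAD proteins carry the signals of the TGF-beta family from the membrane to the nucleus. Activated receptors phosphorylate the receptor-regulated SMADs, SMAD2 and SMAD3 below TGF-beta and activin and SMAD1 and SMAD5 below the bone morphogenetic proteins (BMPs), and these bind SMAD4 and enter the nucleus to control transcription. SMAD6 and SMAD7 inhibit the receptors and their SMADs, while TGIF1, SKI and SKIL (SnoN) hold SMAD target genes down by recruiting histone deacetylases and other corepressors. Ligands of the family, among them activins, BMPs and anti-Müllerian hormone, act on cells of the testis including Leydig cells.

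After 3 hours of cordycepin, Tgif1 and Smad3 had the largest falls among the members detected in both groups, and Smad1 and 1 of the 2 Smad5 probes fell less. Smad6 and Smad7 fell to levels that were not detected, so that only lower bounds of their falls are known. Smad2, Smad4, Skil and Ski did not pass the test. At an adjusted p under 0.05 from limma, 6 of the 12 probes were lower, 0 were higher and the other 6 missed the threshold, where 13.0% of all 24319 probes tested were lower and 1.19% were higher. Both cordycepin arrays lay below both control arrays for 11 of the 12 probes, against 32.4% of all probes, and the exception was Ski. The median log2 ratio of cordycepin over control was -1.11 for the 12 probes (-1.03 with Smad6 and Smad7 at their bounds) and -0.10 for all probes tested. These contrasts are partly one of detection. All 12 probes were detected on both control arrays, against 13415 and 13130 of all 26423 probes on H001 and H002. With only detected probes kept, 9 of the 12 probes were lower, where 27.6% of 13317 probes were. The median log2 ratio of those 13317 probes was -0.28. The share of 32.4% was not taken for detected probes alone. The duplicates were not equally close. All 12 probes read higher on H001 than on H002, by 0.35 to 0.75 on the log2 scale, as did the median probe on the whole array, by 0.50. The cordycepin arrays differed by 0.03 to 0.23 for the members.

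**Figure D1:**
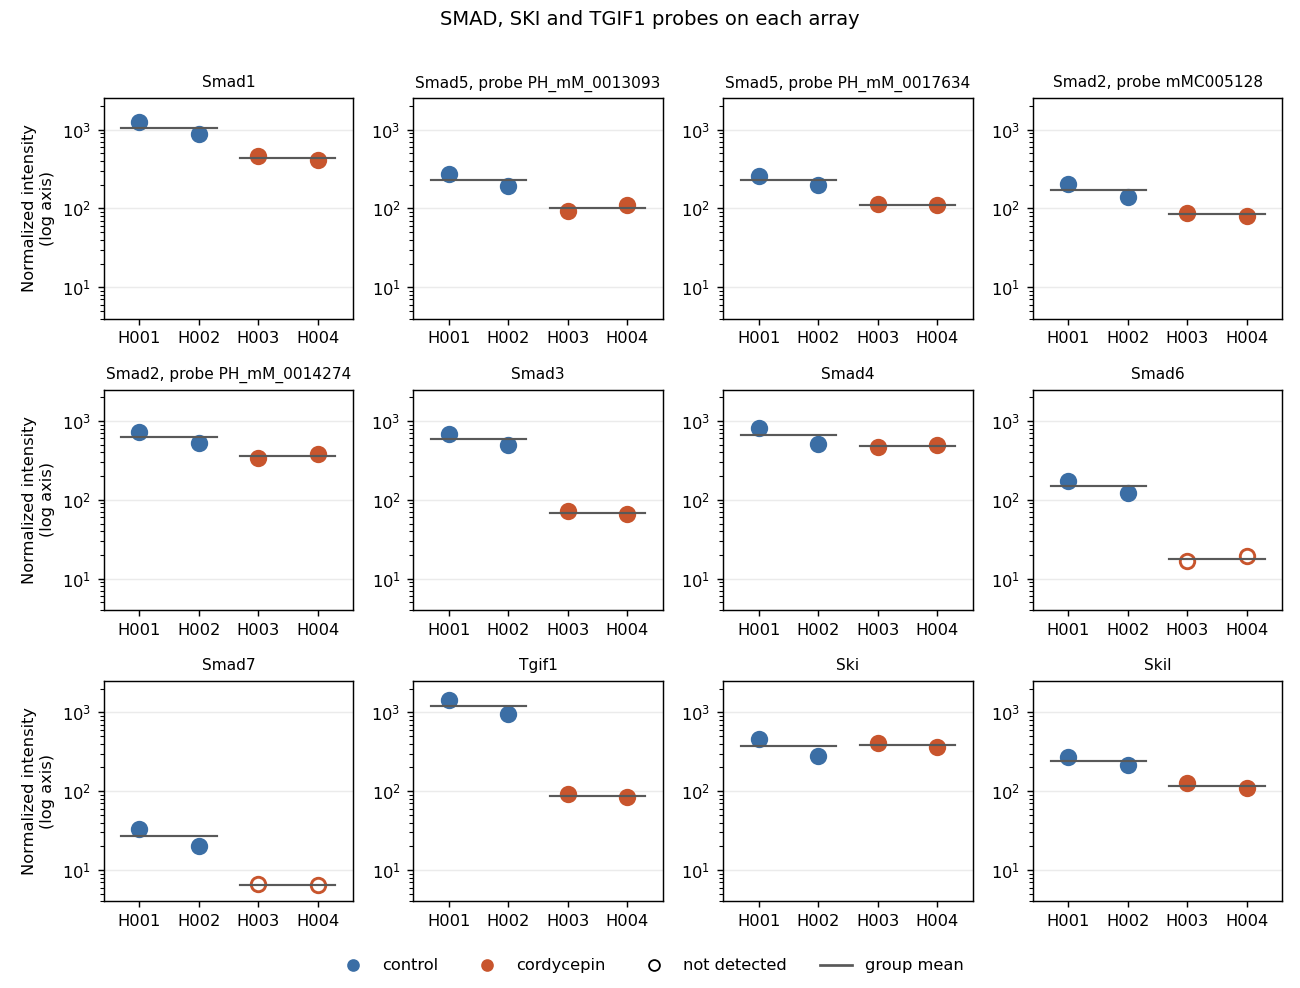
Normalized intensity (arbitrary units, log axis) of each of the 12 probes on the control arrays H001 and H002 (blue) and the cordycepin arrays H003 and H004 (orange), with open circles for arrays on which the probe was not detected and lines for the group means. The cordycepin points lie below both control points for 11 probes, and for Ski they lie between them.

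The array as a whole carried Leydig cell transcripts. Of the 11 Leydig markers listed, 9 had a probe with that symbol. Of these, 7 were detected on both control arrays, Star, Hsd3b1 and Nr5a1 among them, while Lhcgr was detected on 1 of the 2 and the side-chain cleavage enzyme gene Cyp11a1 was listed at 0 on every array. Their intensities summed to 39440 and 28080 on the control arrays, against 27200 and 26230 after cordycepin. Those of the 8 Sertoli markers summed to 41800 and 31830, against 40350 and 28320. Of the Leydig markers tested, Gata4 was 3.05-fold lower (adjusted p = 0.00095 from limma) and Nr5a1 2.2-fold lower (adjusted p = 0.039). The others were not called, Hsd3b1 and Fdx1 with the largest intensities among them. Of the markers of Sertoli cells, 5 of 8 were detected on both control arrays, against 3 of 8 for germ cells, 1 of 4 for peritubular cells, 2 of 4 for macrophages and 2 of 4 for endothelial cells. Their part in the results was not tested. Over the whole array, 13415 and 13130 probes were detected on the control arrays, and 12193 and 12784 after cordycepin. In such bulk RNA, fewer cells that express a gene and less of its RNA per cell cannot be told apart. Per the labels the RNA was copied with oligo-dT primers, so a reading also depends on the poly(A) tail that they bind, which was not measured.

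For 6 member genes RefSeq transcript starts were at hand. The 250 bases before the start of Smad3 and of Smad6, which fell together and lie near each other on chromosome 9, are shown beside those of Ski, which did not fall. The build of the windows is GRCm38.p6, and all 3 lie on the minus strand, Smad3 at chr9:63757995-63758244, Smad6 at chr9:64022060-64022309 and Ski at chr4:155222536-155222785. Between Smad3 and Smad6 the annotation holds 6 genes, 4 long noncoding RNAs and 2 pseudogenes, and 0 protein-coding genes. Capitals mark GC boxes, the letters GGGCGG or their reverse complement CCGCCC, a sequence bound by SP1 family factors.
Smad3: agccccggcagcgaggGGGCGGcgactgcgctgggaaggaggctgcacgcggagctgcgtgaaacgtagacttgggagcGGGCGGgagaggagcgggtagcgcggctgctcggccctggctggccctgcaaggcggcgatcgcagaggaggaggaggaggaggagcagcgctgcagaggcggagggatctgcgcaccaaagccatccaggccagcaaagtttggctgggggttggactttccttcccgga
Smad6: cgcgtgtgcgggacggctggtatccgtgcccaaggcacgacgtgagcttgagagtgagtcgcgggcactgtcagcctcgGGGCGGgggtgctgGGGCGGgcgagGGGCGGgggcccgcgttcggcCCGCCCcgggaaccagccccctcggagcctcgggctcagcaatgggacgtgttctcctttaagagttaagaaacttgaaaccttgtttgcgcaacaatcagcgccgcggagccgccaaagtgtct
Ski: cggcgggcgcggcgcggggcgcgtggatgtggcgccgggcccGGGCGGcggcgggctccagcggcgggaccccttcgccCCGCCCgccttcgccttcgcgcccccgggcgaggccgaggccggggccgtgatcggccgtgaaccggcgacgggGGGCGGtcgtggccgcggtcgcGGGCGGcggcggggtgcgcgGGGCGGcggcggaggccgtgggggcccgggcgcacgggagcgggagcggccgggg
The windows held 2 GC boxes for Smad3, 4 for Smad6 and 5 for Ski, and 32.7% of 32851 windows of this length hold at least 1. None of the 3 windows held CAGAC or its reverse complement GTCTG, the SMAD box, which occurs in 42.2% of all windows. G and C made up 69.2%, 66.8% and 87.6% of the bases, against a median of 52.4%. Of the other members, Smad1 and Smad5 held GC boxes in each of their windows (1 and 3), and 1 of the 3 Smad5 windows held a SMAD box. Tgif1 has 5 annotated starts, of which 2 had a GC box and 3 a SMAD box in their windows, and the array does not say which start it reports. A match is a string of letters and not a shown binding site.

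Of the SMADs of the TGF-beta and activin branch, Smad3 fell and Smad2 did not pass the test. Smad3 gave intensities of 677.7 and 498.9 on the control arrays, and of 72.2 and 65.5 after cordycepin. Every cordycepin value was far below both control values, and the probe was still detected on all 4 arrays. The mean fell from 588.3 ± 126.4 (SD, n = 2 arrays in each group here and below) to 68.8 ± 4.79, and the log2 ratio was -3.08 (standard error 0.41, adjusted p = 2.6e-12 from limma), which is 8.46-fold lower. Folds here and below come from the log2 ratio, which is taken between means of log2 values, and so differ slightly from the ratio of the mean intensities printed. The standard error was the same for every probe because limma pooled the spread over all probes. The p-values thus follow the log2 ratios alone, and the smallest change that passed was 1.10 in size. The pooled spread included a shift of whole arrays, as the median probe read 0.50 higher on H001 than on H002 on the log2 scale. With arrays centred on their medians the median standard error was 0.12, and both Smad2 probes, both Smad5 probes and Skil passed. The 2 probes of Smad2 read 201.5 and 140.3 in the control against 87.8 and 80.9 in cordycepin (mMC005128), and 730.3 and 522.9 against 340.0 and 376.4 (PH_mM_0014274). Both probes were lower on each cordycepin array, without overlap between the groups. Their log2 ratios of -0.996 (95% interval -1.79 to -0.20, adjusted p = 0.086) and -0.79 (-1.59 to 0.01, adjusted p = 0.24) did not pass, and they lay 0.21 apart. Smad2 thus gave the same direction and a similar size with both of its probes.

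The difference between these paralogs was also taken within each array, where the scale of the array cancels. Relative to its mean on the control arrays, the log2 difference of Smad3 from Smad2 (mMC005128) was -0.04 and 0.04 on the control arrays and -2.07 and -2.10 on the cordycepin arrays. Against the other Smad2 probe it was -0.02 and 0.02, then -2.15 and -2.44. The groups did not overlap with either probe, and the mean shift was -2.08 and -2.29. An exact two-sided permutation test over 2 against 2 arrays cannot give a p under 0.333, which is the p both comparisons had (adjusted p = 0.40 over the 6 pairs of probes compared), so no pair could pass.

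Of the SMADs of the BMP branch, Smad1 fell, and Smad5 fell with 1 of its 2 probes. Smad1 read 1252 and 870.9 on the control arrays, then 460.0 and 410.9 after cordycepin. The groups lay well apart. Its mean fell from 1062 ± 269.7 to 435.5 ± 34.7, with a log2 ratio of -1.26, or 2.40-fold lower (adjusted p = 0.016 from limma). The Smad5 probe PH_mM_0013093 read 270.2 and 191.8 without and 93.3 and 109.1 with cordycepin, a log2 ratio of -1.17 (adjusted p = 0.030) and 2.26-fold lower. The other Smad5 probe, PH_mM_0017634, read 259.9 and 198.9 against 113.3 and 110.9, with a log2 ratio of -1.02 (adjusted p = 0.079). For both Smad5 probes the groups did not overlap, and their log2 ratios lay only 0.15 apart, on opposite sides of the threshold. Within arrays, the difference of Smad5 from Smad1 moved by 0.09, with overlapping groups (exact permutation p = 1), and by 0.25 with the second probe (p = 0.333). Without H003 or H004 the log2 ratios stayed near these values, at -1.35 and -1.18 for Smad1 and -1.06 and -1.29 for Smad5. Neither was then called (adjusted p = 0.24 and 0.40 for Smad1, and 0.52 and 0.30 for Smad5). The lone cordycepin array was there assumed to vary like the control arrays, which raised the standard error to 0.61. With quantile-normalized intensities the log2 ratio of Smad5 was -0.35 (adjusted p = 0.12).

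Smad4, the common partner of all receptor-regulated SMADs, read 823.1 and 510.5 on the control arrays, against 462.2 and 496.4 after cordycepin. The lower control array lay close above the higher cordycepin array. The log2 ratio of -0.44 (95% interval -1.23 to 0.36, adjusted p = 0.71 from limma) did not pass. The gap between the control arrays, 0.69 on the log2 scale, was larger than the log2 ratio itself.

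The inhibitory SMADs were detected on both control arrays and on neither cordycepin array. Smad6, which acts mainly on the BMP branch, read 174.0 and 122.5 on the control arrays. After cordycepin it read 16.7 and 19.1, where its detection p-values were 0.10 and 0.057. The groups were far apart, but the cordycepin values lay under the lowest intensity that counted as detected on those arrays. Smad6 was therefore at least 6.46-fold lower (adjusted p = 5.8e-12 from limma, fitted log2 ratio -3.03). Smad7, which inhibits both branches and recruits ubiquitin ligases to the receptors, read 33.2 and 20.4 in the control, with detection p-values of 0.025 and 0.045, and 6.67 and 6.36 in cordycepin. It was barely detected in the control and not detected in cordycepin, and was therefore at least 1.15-fold lower, while its fitted log2 ratio was -2.0 (adjusted p = 1.7e-05). With undetected values set to an array's detection limit, the call of Smad7 was lost (log2 ratio -0.20, adjusted p = 0.95), while that of Smad6 held (log2 ratio -2.69). The difference of Smad7 from Smad6 within arrays rose by 1.03 (exact permutation p = 0.333), but it rests on undetected values in cordycepin.

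Among the corepressors, Tgif1 fell most. This homeodomain protein represses SMAD2 and SMAD3 targets and also binds DNA by itself. Tgif1 read 1438 and 965.9 on the control arrays, and cordycepin brought it to 91.1 and 83.6. It was detected on all 4 arrays, and the groups did not come near each other. The mean fell from 1202 ± 333.7 to 87.4 ± 5.29, with a log2 ratio of -3.76, or 13.5-fold lower (95% interval -4.55 to -2.96, adjusted p = 5.2e-18 from limma). Counted from the largest fall, Tgif1 ranked 135 and Smad3 359 of the 24319 probes.

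Ski and Skil, related corepressors that bind SMAD2, SMAD3 and SMAD4, did not pass the test. Ski read 464.8 and 277.0 on the control arrays, and 408.9 and 368.2 on the others. Both cordycepin values lay between the control values, and the log2 ratio was 0.11 (95% interval -0.69 to 0.91, adjusted p = 0.99). The direction of Ski depended on the scaling. It was higher with quantile-normalized intensities (log2 ratio 0.86, adjusted p = 0.017 from limma), and lower with arrays centred on ribosomal protein genes (log2 ratio -0.42, adjusted p = 0.0496). Skil, whose product is degraded upon TGF-beta signaling and whose gene is induced by it, read 272.4 and 213.9 on H001 and H002, and 125.6 and 109.1 on H003 and H004. Its groups did not overlap, but the log2 ratio of -1.05 (adjusted p = 0.068 from limma) did not pass. Within arrays, the log2 difference of Skil from Ski relative to its control mean was -0.20 and 0.20 on the control arrays, against -1.13 and -1.18 on the cordycepin arrays. The shift of -1.16 was larger than the gap between the control arrays (exact permutation p = 0.333, the smallest possible).

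**Figure D2:**
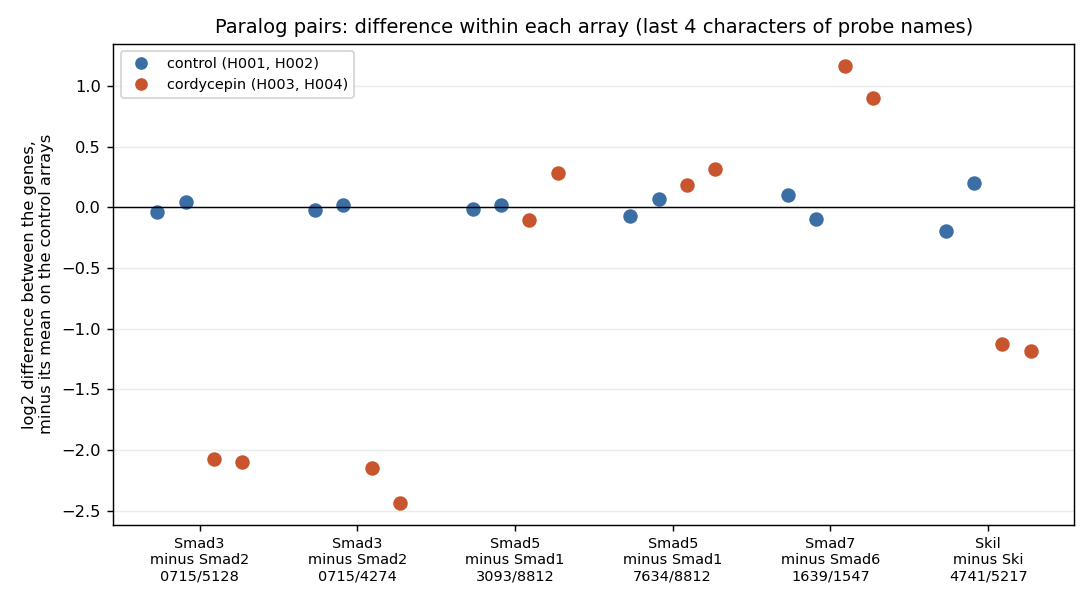
Difference of log2 intensities within each array between related members, minus the mean of that difference on the control arrays (y axis, log2 units), for 6 pairs of probes named on the x axis by the last 4 characters of their names, with control arrays in blue and cordycepin arrays in orange. The difference of Smad3 from Smad2 lay at -2.07 to -2.44 in cordycepin with either Smad2 probe, while that of Smad5 from Smad1 lay at -0.10 to 0.31.

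The members also differed in how far their values depended on the scaling of the arrays. The median log2 ratio of all probes, -0.10 as deposited, became 0.24 with the arrays centred on their medians, 0.14 with quantile-normalized raw intensities and -0.63 with arrays centred on ribosomal protein genes. Tgif1, Smad3 and Smad6 were lower in each of these settings, with fitted log2 ratios of -3.08, -2.35 and -2.57 where the fall was smallest, and passed in 10 of 11 alternatives. The exception for all 3 was the methods' t-test, in which 0 of all probes passed after adjustment (adjusted p = 0.32 for each of them), against 2946 lower and 222 higher probes at an unadjusted p under 0.05. Centring on the median called 10 of the 12 probes lower, where 17.6% of all probes were lower and 20.5% higher. Quantile normalization called 5 lower and Ski higher, where 15.4% of all probes were lower and 21.4% higher. The calls of Smad2, Smad5 and Skil thus depended on the scaling chosen, and they also depended on the probes kept. With only detected probes, the Smad2 probe mMC005128 and Skil passed at unchanged log2 ratios (adjusted p = 0.013 and 0.0086 from limma). The Smad2 probe PH_mM_0014274 did not (adjusted p = 0.065).

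**Figure D3:**
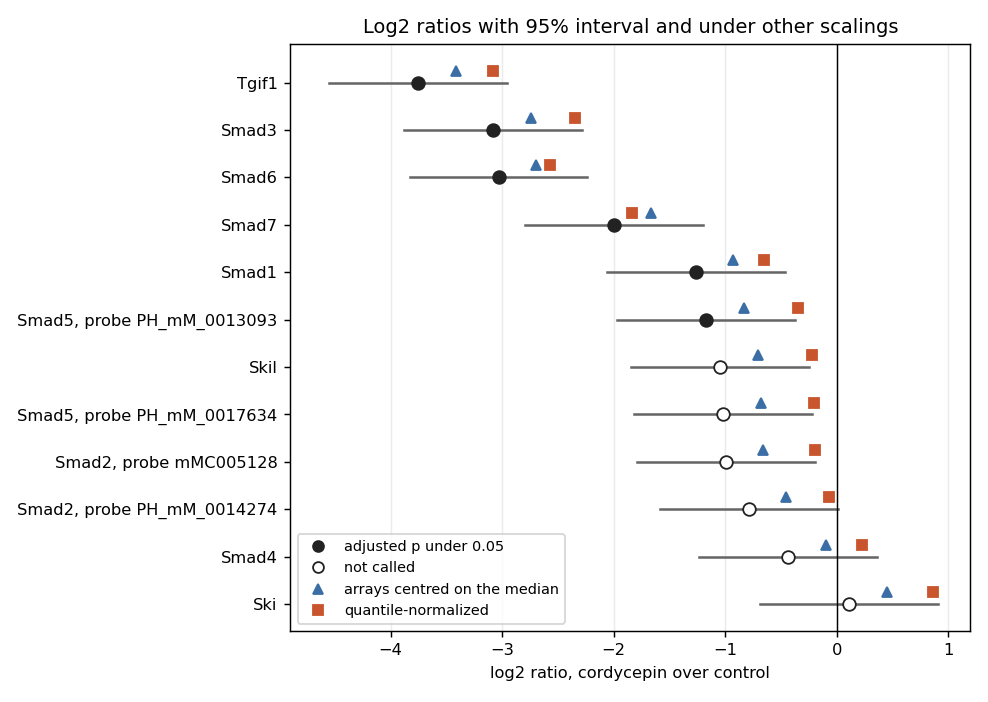
Log2 ratio of cordycepin over control (x axis) for the 12 probes as deposited (circles, filled where the adjusted p from limma was under 0.05, with 95% intervals), with arrays centred on their medians (triangles) and with quantile-normalized raw intensities (squares). Tgif1, Smad3 and Smad6 lie at -2.35 or below in all 3 scalings, whereas Ski runs from 0.11 to 0.86. The values of Smad6 and Smad7 are fitted from intensities not detected in cordycepin.

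The other genes of TGF-beta and BMP signaling were counted by role, 1 brightest probe for each gene. At the same threshold 33 of 119 such genes were lower, 1 was higher and 85 were not called, where 14.6% of all 18478 genes were lower and 0.942% were higher. The median log2 ratio was -0.51 over the 119 genes (-0.45 with the 8 genes undetected in cordycepin at their bounds) and -0.13 over all genes. Here too the shares over all genes include genes that were not detected. With only detected probes kept, 36 of the 84 pathway genes that remained were lower, where 27.6% of 13317 probes were. Of 13 receptors, 5 were lower and 0 higher, with a median of -0.51. Acvr2a, a type II activin receptor, was at least 6.40-fold lower, and Acvr1, a type I BMP receptor, at least 7.74-fold lower, both undetected in cordycepin. Acvr1b, the type I activin receptor, had a control level near the detection limit and was at least 1.11-fold lower. Receptors for activins and BMPs were thus among those that fell, and Tgfbr3 and Bmpr1a were the other two.

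Of 21 ligands, 3 were lower, near the share of 14.6% over all genes, and 0 higher, with a median of -0.32. Inhbb, 1 of the 3, was detected on 1 control array and on no cordycepin array, and is given no fold. Gdf15, a stress-induced ligand that signals through a receptor outside the SMAD pathway, fell from 604.9 ± 127.2 to 82.9 ± 5.36, with a log2 ratio of -2.85, or 7.23-fold lower (adjusted p = 1.2e-10 from limma), and Gdf9, best known from the oocyte, had a log2 ratio of -1.30. Of 19 extracellular and membrane regulators, 1 was lower, below the share of 14.6% over all genes, and 1 higher, with a median of -0.08. The lower was Rgmb, a BMP coreceptor (log2 ratio -1.30), and the higher was Fstl1, which was not detected on any array and is given no fold.

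Of 18 genes of SMAD turnover and regulation, 0 were higher and 3 lower, near the share of 14.6% over all genes, with a median of -0.56 (-0.50 with Zfyve9 at its bound). The 3 lower were Smurf1, a ubiquitin ligase of SMAD1 and SMAD5, 4.22-fold lower, Rnf111 (Arkadia), a ubiquitin ligase that degrades SKIL, SKI and SMAD7, 4.15-fold lower, and Zfyve9 (SARA), which presents SMAD2 and SMAD3 to the receptor, at least 1.18-fold lower. Of 20 partners and relatives, 8 were lower and 0 higher, with a median of -0.66, where 14.6% of all genes were lower. Atf3, 1 of the 8, was not detected on any array and is given no fold. The coactivator gene Ep300 was 6.71-fold lower, the repressor gene Zeb1 5.12-fold lower and the partner factor gene Runx2 4.65-fold lower. Smad9, the third SMAD of the BMP branch, was detected on 1 of 4 arrays, a control, and read 27.5 and 13.3 in the control group, then 20.0 and 16.4 after cordycepin, with overlapping groups (log2 ratio -0.08).

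Of 28 target genes, 13 were lower and 0 higher, where 14.6% of all genes were lower and 0.942% higher. The median log2 ratio of the 28 was -0.91. The 3 with the largest falls were Myc (log2 ratio -5.27, detected on 1 of the 2 cordycepin arrays), which TGF-beta represses, Junb (-4.49), which TGF-beta induces, and Id1 (-3.96), which BMPs induce. Targets that the pathway is known to induce and to repress thus both stood among those that fell, and such genes also answer to other signals. The count of lower target genes was 14 with quantile normalization, where 15.4% of all probes were lower, and 15 with centring on the median, where 17.6% were. It was 22 with centring on ribosomal protein genes, where 66.2% of all probes were lower, and 0 with the methods' t-test after adjustment. With only detected probes kept it was 14 of the 20 target genes that remained, where 27.6% of 13317 probes were lower.

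**Figure D4:**
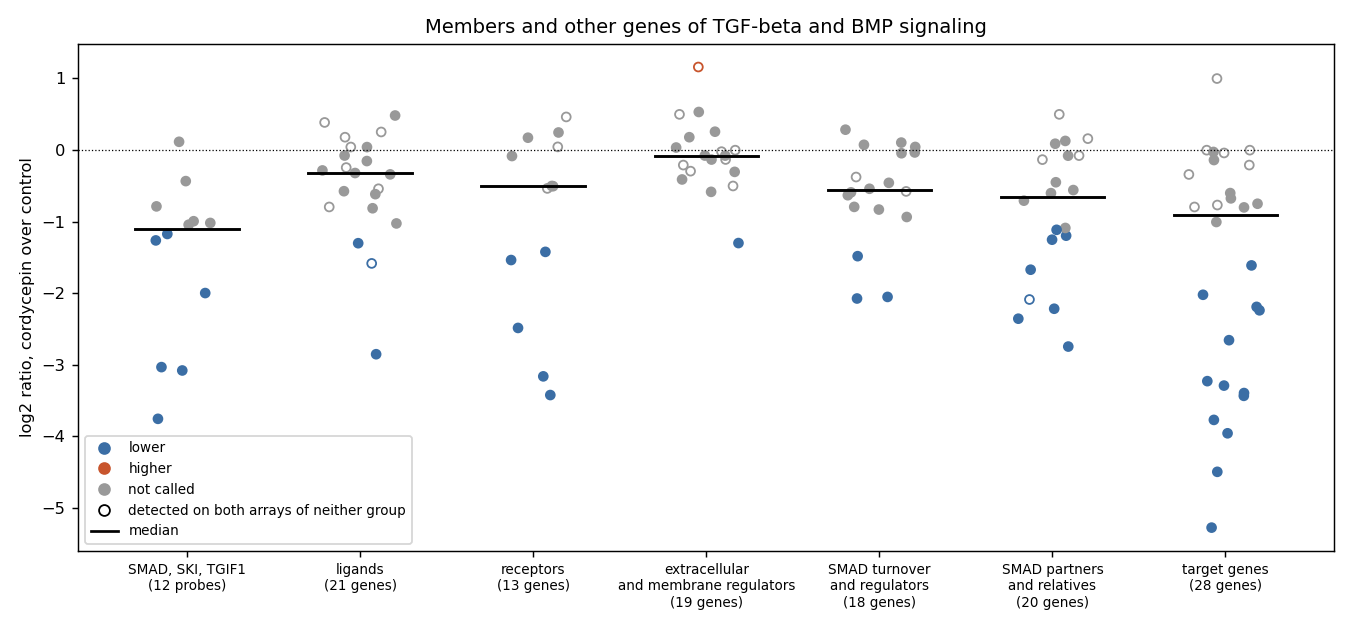
Log2 ratio of cordycepin over control (y axis) for the 12 member probes and for the other genes of the pathway by role, 1 point per probe or gene and a line for the median, coloured by the call at an adjusted p under 0.05 from limma and open where no group detected the probe on both of its arrays. The medians run from -0.08 for extracellular and membrane regulators to -1.11 for the members, and 1 point in all is called higher.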

How the data were processed

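Total RNA from 2 control and 2 cordycepin samples was hybridized to one-colour Mouse OneArray chips. Per the labels, the RNA was reverse-transcribed with oligo-dT primers, the dye was Cy5 although the labelling protocol describes a radioactive label, and the scanner software and normalization method are not given in the sources used here. The authors deposited raw intensities, already background-subtracted, and normalized intensities, which were found to be the raw intensities times 1 constant per array (1.15 and 0.888 for the control, 1.11 and 0.909 for cordycepin). The authors also deposited a detection p-value for each probe and array. Their own group averages, log2 ratio and p-value of the comparison were not used. The gene symbols were those that the deposited table gives for each probe.

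Normalized intensities were taken as log2, and cordycepin was set against control with limma 3.58.1 (lmFit and eBayes) in R 4.3.3, for the 24319 probes above 0 on all 4 arrays, with Benjamini-Hochberg adjustment over all of them. All 12 member probes entered. Calls were made at an adjusted p under 0.05, and detection meant a detection p under 0.05. For a probe undetected on both arrays of a group, the group was placed at its arrays' lowest detected intensities, and the fold is a lower bound. The fit was tested on simulated data. Related members were compared within arrays by an exact two-sided permutation test. The number of arrays limits the precision.

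Of the probes, 22553 carried 1 symbol, 237 several and 3633 none, and only the first were used for genes, so that Tgif2, whose probe carries several, was not counted. Every member was named, and of each pathway list up to 3 lower and up to 2 higher genes with the largest log2 ratio among those called and detected on both arrays of a group. Smad9 was named as a relative. Fstl1, Tgfbr3, Bmpr1a, Inhbb, Atf3 and the Leydig marker Gata4 were named after their values were seen. The members and lists were chosen with earlier results of these data known. The alternatives were 3 other scalings (medians, quantiles and 41 ribosomal protein genes), raw intensities, a detection filter and a floor. Leaving out each array and the methods' t-test, with the same adjustment, were the others. Promoter windows came from RefSeq (GRCm38.p6).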

Additional observations from a re-analysis of the deposited data

How the results depend on the processing

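No paired analysis was possible because the labels give the arrays no replicate numbers that the groups share. The number of member probes lower, 6 as deposited, was 10 with median centring, where 17.6% of all probes were lower. It was 12 with ribosomal protein centring, where 66.2% of all probes were lower. It was 0 with the methods' t-test after adjustment, a step that the paper does not describe. Without H003 and without H004 the log2 ratios were -3.15 and -3.01 for Smad3, and -3.82 and -3.69 for Tgif1. They were -2.935 and -3.13 for Smad6, and -2.03 and -1.965 for Smad7. Those of Skil were -1.15 and -0.94, against -1.05 with all arrays. A group left with 1 array was assumed to vary like the other group, so the smallest change called was 1.78 without H003 and 1.79 without H004, against 1.10 with all arrays, and 0.65 without H002. The number higher, 0 as deposited, was 1 (Ski) with quantile normalization and 0 with any array left out. Smad4 changed direction with quantile normalization (log2 ratio 0.23), and Ski changed direction with ribosomal protein centring (-0.42) and without H002, with log2 ratios from -0.26 to 0.49 (without H001) when 1 array was left out.

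Over all probes, 3152 lower became 16105 with ribosomal protein centring, 0 with the methods' t-test and 1548 to 6569 with 1 array left out. The 290 higher became 4974 with median centring, 5193 with quantile normalization, 153 with detected probes only, 147 with low values raised to the detection limit, 0 with the t-test and 77 to 2183 with 1 array left out. Of the pathway genes, 33 lower became 93 with ribosomal protein centring, 0 with the t-test and 22 to 59 with 1 array left out. The 1 higher became 15 with median centring, where 20.5% of all probes were higher, and 19 with quantile normalization, where 21.4% were. It was 2 with raw intensities, where 1.43% of all probes were higher. With detected probes only, with the raised floor and with the t-test it was 0. The counts of pathway genes also moved with 1 array left out, as did those over all probes. The cause of the other changes was not tested. By role, the number of genes lower with 1 array left out was 1 to 8 for ligands (3 with all arrays), 3 to 7 for receptors (5), 0 to 2 for extracellular and membrane regulators (1), 2 to 11 for SMAD turnover (3) and 4 to 13 for partners and relatives (8), each highest without H002. With ribosomal protein centring the same counts were 15, 9, 13, 17 and 17, where 66.2% of all probes were lower. SMAD turnover also had 6 lower genes with median centring, where 17.6% of all probes were lower. It had 4 higher with quantile normalization, where 21.4% of all probes were higher. The within-array differences between related members kept their direction with quantile normalization, and a constant per array cancels in them. The shift of Smad5 from Smad1 grew with quantile normalization, from 0.09 to 0.31 with PH_mM_0013093, where the groups then no longer overlapped. With PH_mM_0017634 it grew from 0.25 to 0.46. Intensities near the detection limit give only bounds for Smad6 and Smad7.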
